A study of Mus musculus with 11 samples.

Results

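Heart muscle transcripts for the sarcomere, the Z-disc and the machinery that assembles them were followed across WT and CD mice given vehicle or JZL184. The members were 49 listed genes, taken by their Ensembl identifiers, with a mean of at least 1 CPM (counts scaled to the same library total in every mouse) over the 11 mice. Of these, 48 met the limit, out of 22608 genes in the deposited table. Myl7, the atrial regulatory light chain of myosin, had a mean of 0.198 CPM and did not. Myl4, the atrial essential light chain, met the limit with a mean of 1.13 CPM but was too low for the test, so 47 members were tested among 11319 genes.

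The RNA came from the ventricles of 11 male mice aged 8 to 16 weeks on a C57BL/6J background. CD mice model Williams-Beuren syndrome (WBS) and keep a single copy of the genes in the WBS interval on chromosome 5, and their WT littermates keep both copies. JZL184, an irreversible inhibitor of monoacylglycerol lipase, the enzyme that breaks down the endocannabinoid 2-AG, was injected at 8 mg/kg for 10 days. The WT mice numbered 2 on vehicle (WT VEH) and 3 on the drug (WT JZL184), and the CD mice 3 on vehicle (CD VEH) and 3 on the drug (CD JZL184). The sample titles call the 5 controls vehicle and their treatment field calls them untreated. Columns of the table carry a letter for each mouse within its group, used here as its name. All tissue was bulk RNA, in which fewer cells of a type and less RNA per cell cannot be told apart.

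Each mouse had 69660232 to 92251443 counts, of which 36.4% to 46.6% came from the mitochondrial genome, and 3 counts corresponded to 0.0308 to 0.0429 CPM. All 14 tested genes of the deleted interval were lower in all CD mice than in any WT mouse, and Gtf2i, a gene within it, lay at 93.9 to 128 CPM in WT mice and 51.2 to 68.3 CPM in CD mice. Checked against the ventricle label, the atrial genes Sln and Bmp10 were near 0, whereas Dkk3 lay at 1.15 to 2.96 CPM and Nppa at 49.1 to 217 CPM. The 9 skeletal muscle markers summed to 1.89 to 3.14 CPM, and none was high enough to be tested. Mouse B of WT JZL184 stood apart, being the lowest of the 11 mice in 25 of the 47 tested members. Mouse A of CD VEH had 17308 CPM of 4 erythroid genes, against 1323 to 5044 CPM in the other 10 mice. Counts without either mouse are given beside the results that they move.

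In the sarcomere, thick filaments of myosin pull on thin filaments of actin, tropomyosin and troponin. Thin filaments are anchored in the Z-disc by alpha-actinin, and titin spans from the Z-disc to the M-band, where myomesins crosslink the thick filaments. Chaperones, methyltransferases and ubiquitin ligases fold, place and remove these proteins, and mutations in many of the genes cause cardiomyopathy.

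Levels per kilobase of exon set the members in order in WT VEH. The ventricular regulatory light chain Myl2 was highest at 3314 ± 4.2 CPM per kb (SD, n = 2), followed by the essential light chain Myl3 at 1899.8 ± 11.3 CPM per kb. Troponin C (Tnnc1) had 1460.1 ± 10.6 CPM per kb and troponin I (Tnni3) had 1344 ± 32.4 CPM per kb. Below them came tropomyosin (Tpm1) at 965 ± 26.3, troponin T (Tnnt2) at 694 ± 21.5 and myosin-binding protein C (Mybpc3) at 667 ± 29.6 CPM per kb, the last pair within their SDs of each other. Alpha-actinin-2 (Actn2) and desmin (Des), at 289 ± 10.1 and 288 ± 6.12 CPM per kb, also lay within their SDs of each other. Titin (Ttn), with an exon model of 117 kb, had 28.98 ± 6.38 CPM per kb. The lowest members were Pdlim3 at 1.33 ± 0.0921, Myl4 at 0.315 ± 0.0654 and Neb at 0.262 ± 0.00649 CPM per kb. These lengths join all annotated exons of a gene; with the longest transcript instead, Myl2 had 7270.2 CPM per kb and the order below Myl3 changed. Tnni3 (3041) and Tpm1 (2165) then lay above Tnnc1 (2108), and Tnnt2, at 1615, was well above Mybpc3, at 667 CPM per kb.

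The atrial light chains were low in all groups. Myl4 was at 1.67 and 1.25 CPM in WT VEH, 1.24, 1.07 and 1.2 CPM in CD VEH, 0.796, 0.791 and 1.42 CPM in WT JZL184 and 0.854, 1.04 and 1.15 CPM in CD JZL184. Myl7 was at 0.515 and 0.0623 CPM in WT VEH, 0.108, 0.467 and 0.0588 CPM in CD VEH, 0.0652, 0.0832 and 0.41 CPM in WT JZL184 and 0.0351, 0.154 and 0.219 CPM in CD JZL184. Both genes varied more among mice of a group than their ventricular counterparts Myl2 and Myl3 did, and neither was tested. Together the 48 members took 3.93% to 4.98% of the scaled counts of a mouse.

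**Figure D1:**
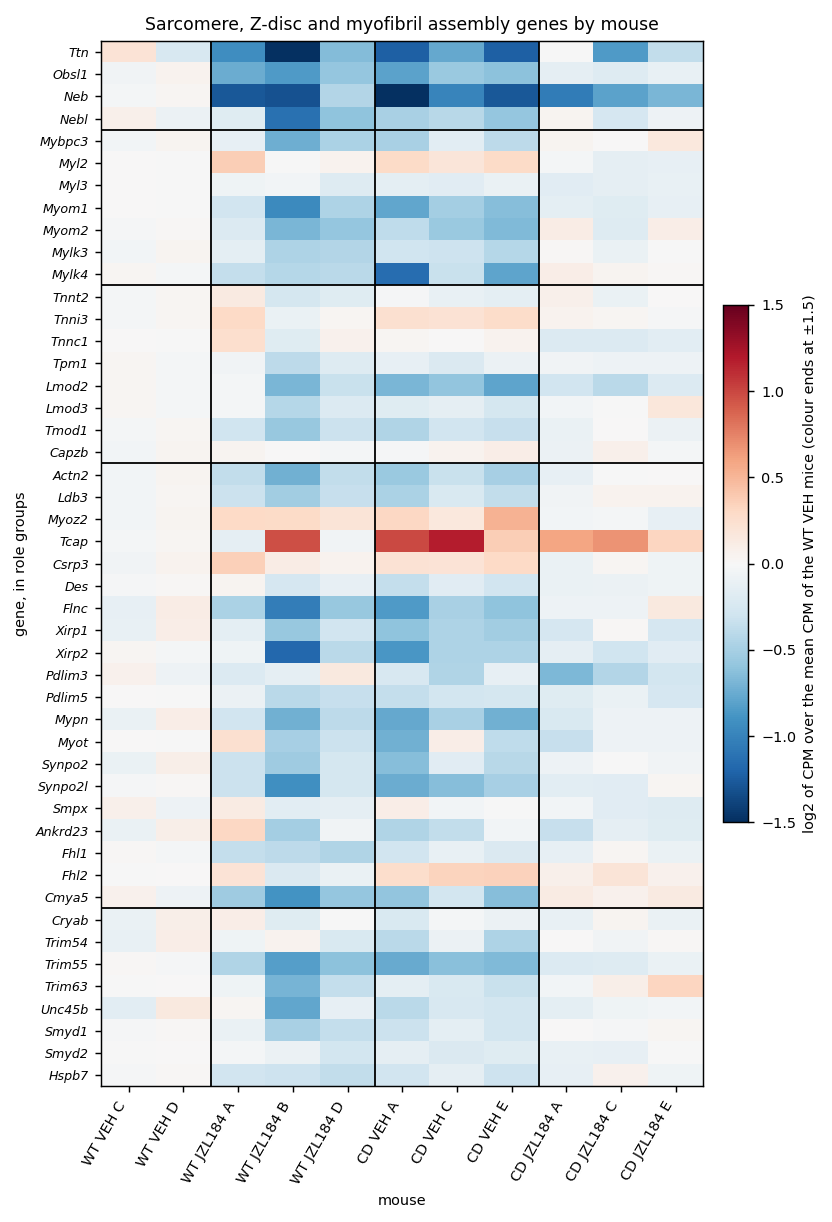
Log2 of each tested member's CPM over its WT VEH mean, with the 47 genes in rows by role group (filament giants, thick filament and M-band, thin filament, Z-disc, assembly) and the 11 mice in columns. The colours end at ±1.5. Blue cells are below the WT VEH mean and red cells above it, and most blue cells lie in WT JZL184 and CD VEH.

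CD VEH was compared with WT VEH to find how the deletion alone was associated with these genes. Genes with an adjusted p under 0.05 in edgeR's quasi-likelihood test (Benjamini-Hochberg adjustment over the 11319 genes) were counted as DEGs. Of the 47 tested members, 20 were lower in CD VEH, where 14.4% of all tested genes were lower. The number of higher members was 2, Tcap and Myoz2, where 15.6% of all genes were higher. The median log2 fold-change was -0.30 over the members and 0.02 over all tested genes. The count depended on each WT VEH mouse, and when 1 was left out the other is assumed to vary like the other groups. Without mouse C of WT VEH 4 members remained DEGs (Mypn, Neb, Obsl1 and Trim55), and without mouse D there were 6, these 4 with Lmod2 and Mylk4. Without mouse A or mouse E of CD VEH there were 13. A fit of these 2 groups alone called 36, with 30 lower, beside 17.8% of all genes, and 6 higher, beside 17.2%.

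JZL184 was compared with vehicle in each genotype. In CD mice, 18 members were higher in CD JZL184 than in CD VEH, beside 16.9% of all tested genes, and 3 were lower (Myl2, Myoz2 and Csrp3), beside 16.6%. Their median log2 fold-change was 0.26, against 0.00 over all genes. In WT mice, 19 members were lower in WT JZL184 than in WT VEH, beside 14.2% of all genes, and 0 were higher, beside 15.0%. At an unadjusted p under 0.05, 1 member was higher there, beside 21.0% of all genes, and DESeq2 called 1, Myoz2, beside 17.6%. With the 2 groups fitted alone, 8 members were lower, beside 4.90% of all genes. Their median log2 fold-change was -0.32, against -0.01 over all genes. The WT VEH mice serve as controls for both CD VEH and WT JZL184, and the CD VEH mice enter both that comparison and the one with CD JZL184, so the comparisons are not independent. In CD mice the count of DEGs was 11 without mouse A and 12 without mouse E of CD VEH, 12 without mouse E and 14 without mouse A of CD JZL184. In WT mice it was 4 without either WT VEH mouse (Fhl1, Obsl1 and Trim55 each time, with Flnc or Cmya5), and 14 without mouse B of WT JZL184.

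**Figure D2:**
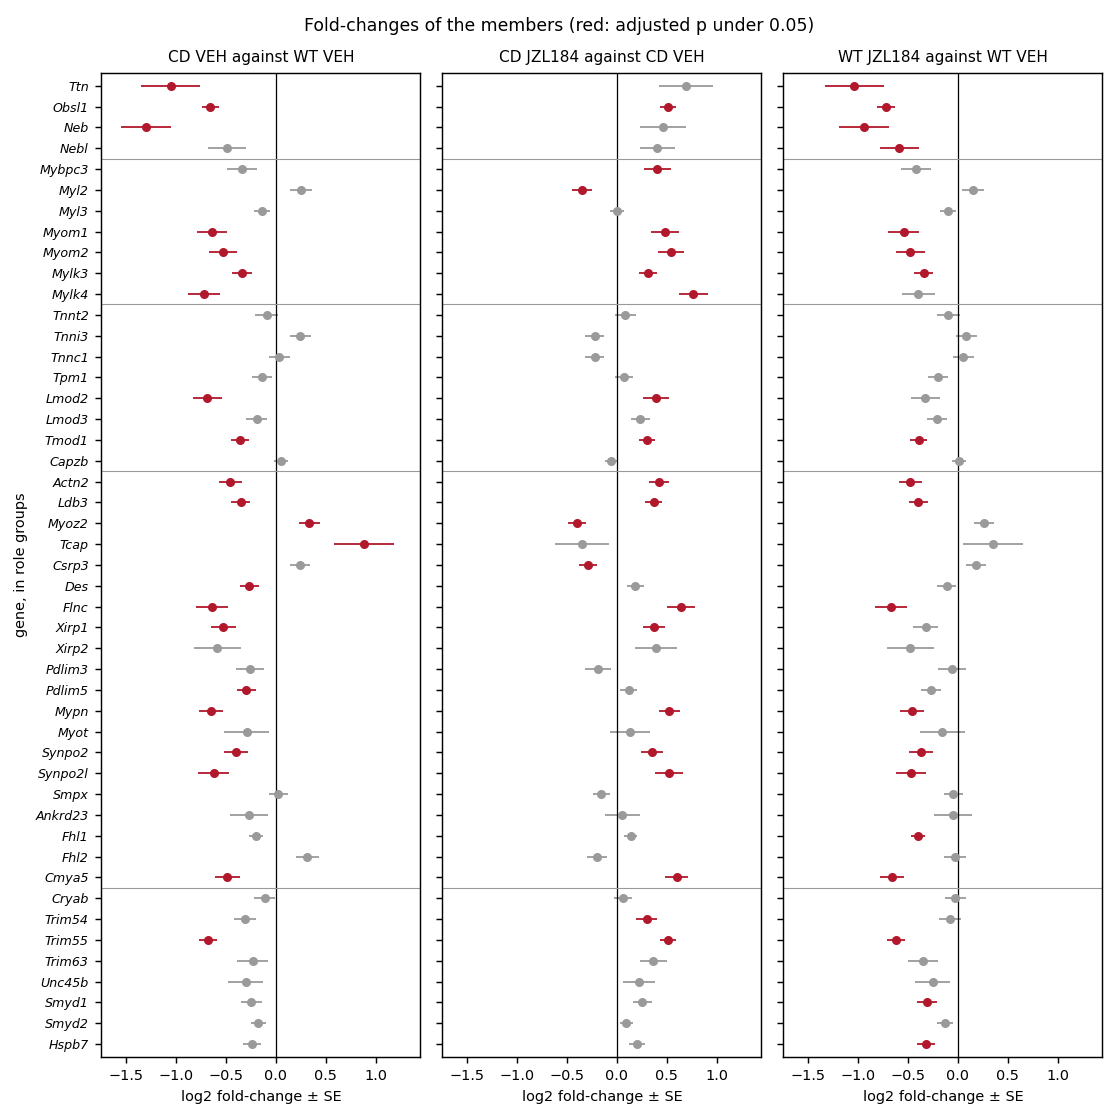
Log2 fold-change ± SE of the 47 tested members in 3 comparisons, in the same order as above, with red points for an adjusted p under 0.05. CD VEH has 20 red points left of 0 and 2 right of it, CD JZL184 against CD VEH has 18 right and 3 left, and WT JZL184 has 19 left.

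The promoters of 3 members with large changes in CD VEH against WT VEH were examined for binding motifs of muscle transcription factors. They are the members with the largest absolute log2 fold-changes whose promoter window holds a CArG box, the element bound by serum response factor, or a site of the MEF2 factors. Sequences are RefSeq windows of build GRCm38.p6, 250 bases before to 50 after the annotated start, read 5′ to 3′ on the strand of the gene, with the motif in capitals. The windows lie at chr2:76982498-76982797 on the minus strand for Ttn, chr13:32783915-32784214 on the minus strand for Mylk4 and chr17:71019307-71019606 on the plus strand for Myom1, whose RefSeq start is internal to the gene as GENCODE places it.
Ttn: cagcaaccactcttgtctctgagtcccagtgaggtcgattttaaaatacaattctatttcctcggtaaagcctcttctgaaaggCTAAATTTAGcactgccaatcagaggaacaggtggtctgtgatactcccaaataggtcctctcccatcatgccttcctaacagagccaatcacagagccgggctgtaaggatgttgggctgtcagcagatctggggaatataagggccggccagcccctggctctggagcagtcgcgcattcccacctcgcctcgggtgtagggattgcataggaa
Mylk4: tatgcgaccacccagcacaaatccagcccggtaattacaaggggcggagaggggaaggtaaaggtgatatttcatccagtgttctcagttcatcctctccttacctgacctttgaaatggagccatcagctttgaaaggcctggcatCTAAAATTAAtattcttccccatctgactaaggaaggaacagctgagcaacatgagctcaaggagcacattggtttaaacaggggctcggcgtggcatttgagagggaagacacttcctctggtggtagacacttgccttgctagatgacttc
Myom1: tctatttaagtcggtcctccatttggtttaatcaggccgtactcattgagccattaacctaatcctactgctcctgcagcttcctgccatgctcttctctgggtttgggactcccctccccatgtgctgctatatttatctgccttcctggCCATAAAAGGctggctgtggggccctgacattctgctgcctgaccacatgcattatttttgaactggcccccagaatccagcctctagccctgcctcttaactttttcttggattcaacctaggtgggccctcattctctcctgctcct
Ttn held a MEF2 site with 156 bases between it and the start, Mylk4 a MEF2 site with 93 bases between, and Myom1 a CArG box with 89 bases between.

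Among the listed genes, 41 matched the promoter table, with 55 windows. The others were Myom2, Cryab, Xirp1, Neb, Tcap, Trim55, Myot and Lmod3. A CArG box was in 16.4% of these windows and in 1.63% of all 32851 windows. A MEF2 site was likewise in 16.4% of them and in 3.19% of all windows. The E-box CANNTG was in 76.4% of members' windows and 72.3% of all, and CATTCC, the core bound by TEAD factors, in 32.7% and 14.7%. Both strands were searched, and motifs overlapped in 1 window of the members. CArG boxes were found at Fhl1, Fhl2, Ldb3, Myl3, Myl7, Myom1 and Nebl, and MEF2 sites at Fhl2, Mybpc3, Mylk4, Myoz2, Synpo2, Synpo2l, Ttn and Xirp2. These genes include members that were lower, higher and not called in CD VEH, and a match is a description of letters in a window.

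The largest falls in CD VEH among the members were those of Neb and Ttn. Ttn (chr2:76703980-76982547, minus strand, GRCm38), the elastic filament of the sarcomere, was at 3913 and 2858 CPM in WT VEH, 1448, 1989.9 and 1447 CPM in CD VEH, 1769, 1008 and 2160.4 CPM in WT JZL184 and 3383, 1875 and 2627 CPM in CD JZL184. All CD VEH and WT JZL184 mice lay below both WT VEH mice, and CD JZL184 mice overlapped every other group. Compared with WT VEH, its log2 fold-change was -1.06 ± 0.30 (SE, adjusted p = 0.0208) in CD VEH and -1.04 ± 0.30 (SE, adjusted p = 0.0224) in WT JZL184. The value of CD JZL184 against CD VEH, 0.69 ± 0.27 (SE, adjusted p = 0.0656), did not pass the test. It was 0.16 (adjusted p = 0.451) with an offset for gene length, and it passed in 3 of 16 alternatives, with the 2 groups fitted alone or without mouse C of either. Mouse B of WT JZL184 was the lowest of all, and the WT JZL184 mice differed by 2.14-fold among themselves. The call in CD VEH was lost without mouse A or E of CD VEH, without either WT VEH mouse, and with an offset for gene length (-0.41, adjusted p = 0.0988). The call in WT JZL184 was lost without either WT VEH mouse or with that offset.

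Neb (chr2:52136647-52378474, minus strand), which encodes nebulin, the thin filament ruler of skeletal muscle, was detected at a low level. It was at 6.85 and 7.1 CPM in WT VEH, 2.11, 3.5 and 2.88 CPM in CD VEH, 2.9, 2.82 and 5.13 CPM in WT JZL184 and 3.37, 3.99 and 4.34 CPM in CD JZL184. Its log2 fold-change was -1.30 ± 0.25 (SE, adjusted p = 0.005) in CD VEH and -0.94 ± 0.25 (SE, adjusted p = 0.0162) in WT JZL184, both against WT VEH. CD JZL184 mice overlapped CD VEH mice and stayed below both WT VEH mice, and the comparison of CD JZL184 with CD VEH gave 0.46 ± 0.23 (SE, adjusted p = 0.135). Its heart paralogue Nebl, nebulette, fell in WT JZL184 by 0.59 on the log2 scale, and gave -0.49 ± 0.19 in CD VEH (SE, adjusted p = 0.072), where DESeq2 called it (-0.50, adjusted p = 0.0247). Its call in WT JZL184 was lost under 6 of 15 alternatives, among them the length offset and leaving out mouse B or D of WT JZL184 or either WT VEH mouse.

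Obsl1 (chr1:75479310-75506452, minus strand), a cytoskeletal adaptor that binds titin and myomesin at the M-band, had little spread within groups. It was at 67.4 and 72.6 CPM in WT VEH, 40.1, 47.5 and 45.7 CPM in CD VEH, 41.7, 38.8 and 46.7 CPM in WT JZL184 and 63.5, 61.5 and 65.03 CPM in CD JZL184. CD VEH and WT JZL184 mice overlapped each other and lay below all WT VEH and CD JZL184 mice. Obsl1 fell in CD VEH by 0.66 on the log2 scale (SE 0.09, adjusted p = 0.00186) and in WT JZL184 by 0.72 (SE 0.09, adjusted p = 0.00113). It rose in CD JZL184 against CD VEH by 0.51 ± 0.08 (SE, adjusted p = 0.00241), and none of these calls was lost in any alternative fit.

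Of the 7 tested thick filament and M-band genes, beside shares over all genes of 14.4%, 16.9% and 14.2%, 4 were lower in CD VEH, 5 were higher when CD JZL184 was compared with CD VEH, and 3 were lower in WT JZL184. The myomesins Myom1 (chr17:71002633-71126856, plus strand) and Myom2, which crosslink thick filaments, were among them. Myom1 fell in CD VEH by 0.64 and Myom2 by 0.53, both on the log2 scale. In CD JZL184 against CD VEH, Myom1 rose by 0.48 and Myom2 by 0.54. In WT JZL184, Myom1 fell by 0.54 and Myom2 by 0.48. The call of Myom1 in CD JZL184 was lost under 5 of 16 alternatives, and that of Myom2 in WT JZL184 under 6 of 15, among them in each case the length offset (adjusted p = 0.0582 and 0.0576).

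Kinases of the thick filament were also called. Mylk4 (chr13:32700834-32783954, minus strand), a kinase of the myosin light chain kinase family, was at 146 and 141 CPM in WT VEH, 65.2, 114 and 82.7 CPM in CD VEH, 112, 107 and 108 CPM in WT JZL184 and 153, 147 and 145 CPM in CD JZL184. Mouse A of CD VEH was the lowest, and all CD VEH and WT JZL184 mice lay below all WT VEH and CD JZL184 mice. Its log2 fold-change was -0.72 ± 0.16 (SE, adjusted p = 0.00872) in CD VEH, 0.77 ± 0.15 (SE, adjusted p = 0.00399) between treated and vehicle CD mice, with -0.39 ± 0.16 (SE, adjusted p = 0.0827) in WT JZL184 not passing. Mylk3, the cardiac kinase of Myl2, was at 588 and 619.7 CPM in WT VEH, 489.7, 489 and 450.1 CPM in CD VEH, 544, 438 and 446 CPM in WT JZL184 and 609.6, 564 and 600.2 CPM in CD JZL184. It fell in CD VEH by 0.34 (SE 0.10, adjusted p = 0.0234) and in WT JZL184 by 0.34 (SE 0.10, adjusted p = 0.0237), and rose in CD JZL184 against CD VEH by 0.31 ± 0.09 (SE, adjusted p = 0.0199). The call in WT JZL184 was lost in 5 of 15 alternatives (the 2 groups alone, or without mouse B or D of WT JZL184 or either WT VEH mouse). The rise in CD mice was lost in 3 of 16, without mouse A or E of CD JZL184 or mouse E of CD VEH, and the fall in CD VEH in 3 of 15, without mouse E of CD VEH or either WT VEH mouse.

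Mybpc3, which tunes crossbridge cycling, was at 2688 and 2862 CPM in WT VEH, 1988, 2492 and 2109.6 CPM in CD VEH, 2544, 1675 and 2005 CPM in WT JZL184 and 2856, 2795 and 3085 CPM in CD JZL184. Every CD JZL184 mouse was above every CD VEH mouse, and Mybpc3 rose there by 0.41 ± 0.14 (SE, adjusted p = 0.0379). Its value in CD VEH, -0.34 ± 0.15 (SE, adjusted p = 0.107), did not pass, while DESeq2 called it (-0.35, adjusted p = 0.0442). The call in CD mice was lost when any mouse of CD JZL184, or mouse A or E of CD VEH, was left out, and with an offset for GC content.

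Of the ventricular light chains, Myl2 did not share the directions of the kinases. Myl2 (chr5:122100951-122113472, plus strand), the substrate of Mylk3, was at 6469 and 6457 CPM in WT VEH, 7875, 7329 and 7892 CPM in CD VEH, 8378, 6438 and 6700.2 CPM in WT JZL184 and 6316, 5908 and 5942 CPM in CD JZL184. It was lower in every CD JZL184 mouse than in every CD VEH mouse, with a log2 fold-change of -0.35 ± 0.10 (SE, adjusted p = 0.0204), and gave 0.25 ± 0.11 (SE, adjusted p = 0.103) in CD VEH against WT VEH, where DESeq2 called it (0.24, adjusted p = 0.0437). With an offset for gene length the second of these was 0.10 (adjusted p = 0.544), the first was -0.20 (adjusted p = 0.165), and it also lost its call without mouse A or E of CD VEH or mouse C or E of CD JZL184. Myl3, the essential light chain, was at 3899.7 and 3867 CPM in WT VEH, 3502, 3462 and 3620.2 CPM in CD VEH, 3709, 3760.0 and 3393 CPM in WT JZL184 and 3464, 3524 and 3609 CPM in CD JZL184. Both WT VEH mice lay above all others. CD VEH compared with WT VEH gave -0.14 ± 0.08 (SE, adjusted p = 0.201) in edgeR's test, which did not pass, whereas it passed with DESeq2 (-0.15, adjusted p = 0.0345) and with the length offset (-0.28, adjusted p = 0.0222). That was the direction of the kinases. The interaction of Myl3 was 0.10 (adjusted p = 0.439) in edgeR's test and 0.36 (adjusted p = 0.0132) with that offset.

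**Figure D3:**
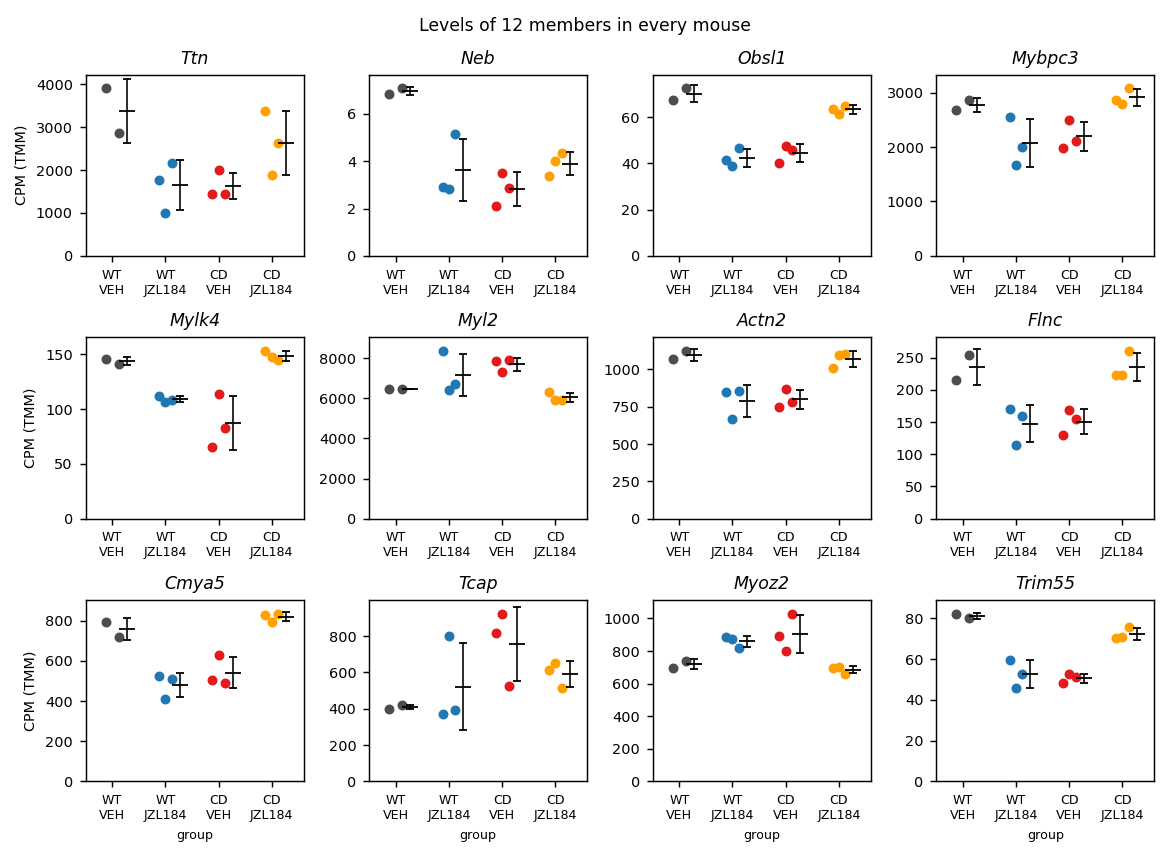
CPM of 12 members in every mouse (points), by group, with the mean and SD of the group (bar beside the points), on linear axes from 0. In 9 of the panels the WT JZL184 and CD VEH means are below those of WT VEH and CD JZL184, whereas in Myl2 and Myoz2 they are above them.

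In the thin filament, the regulatory core had no DEGs in edgeR's test. Tnnt2, Tnni3, Tnnc1 and Tpm1, which make calcium control contraction, were DEGs in none of the 6 comparisons, nor was Capzb, the beta subunit of the capping protein that closes the barbed ends of actin. Tnnt2 was at 5258 and 5494 CPM in WT VEH, 5299.7, 4964 and 4868 CPM in CD VEH, 5892, 4474 and 4749 CPM in WT JZL184 and 5663, 5003 and 5381 CPM in CD JZL184. Tnni3 was at 2726 and 2821 CPM in WT VEH, 3286, 3231 and 3349.9 CPM in CD VEH, 3406, 2587 and 2823 CPM in WT JZL184 and 2869, 2840.1 and 2747 CPM in CD JZL184. Both overlapped between WT VEH and WT JZL184, and Tnni3 was above both WT VEH mice in all 3 CD VEH mice.

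Tnnc1 was at 1528 and 1512 CPM in WT VEH, 1552, 1531 and 1582 CPM in CD VEH, 1808, 1345 and 1585 CPM in WT JZL184 and 1320.1, 1319.8 and 1358 CPM in CD JZL184. Tpm1 was at 6376 and 6135 CPM in WT VEH, 5748, 5383 and 5877 CPM in CD VEH, 6036, 4772 and 5492 CPM in WT JZL184 and 6036, 5948 and 5928 CPM in CD JZL184. Summed, these 4 genes lay at 15888 to 15962 CPM in WT VEH, 15108 to 15886 CPM in CD VEH, 13178 to 17141 CPM in WT JZL184 and 15110.2 to 15888 CPM in CD JZL184, and their widest spread was within WT JZL184. Capzb was at 139.9 and 148 CPM in WT VEH, 143, 150.0 and 154 CPM in CD VEH, 149, 145 and 141 CPM in WT JZL184 and 136, 152 and 141 CPM in CD JZL184, with all groups overlapping. The log2 fold-changes of the 5 genes ran from -0.14 (Tpm1) to 0.25 (Tnni3) in CD VEH against WT VEH, with SEs of 0.07 to 0.12. DESeq2 did call Tnni3 in CD VEH (0.24, adjusted p = 0.0378), in CD JZL184 against CD VEH (-0.22, adjusted p = 0.0269) and in the interaction. It also called Tnnc1 lower in CD JZL184, both against CD VEH (-0.22, adjusted p = 0.0329) and against WT JZL184 (-0.26, adjusted p = 0.00916), and Tpm1 in the interaction (0.27, adjusted p = 0.0421).

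Pointed-end proteins of the thin filament included DEGs. Tmod1, tropomodulin, which caps these ends, fell in CD VEH by 0.36 on the log2 scale and in WT JZL184 by 0.39, and rose in CD JZL184 against CD VEH by 0.30. Lmod2, leiomodin, which lengthens them, fell in CD VEH by 0.69 (SE 0.15, adjusted p = 0.00738) and rose in CD JZL184 by 0.39 ± 0.13 (SE, adjusted p = 0.0407), the latter call being lost under 5 of 16 alternatives, all of them left-out mice. Lmod3, a further leiomodin, was called in neither (-0.19, adjusted p = 0.173, and 0.24, adjusted p = 0.0688), although its mice did not overlap in either. In CD JZL184 it passed with DESeq2 (adjusted p = 0.0418) and with the length offset (0.36, adjusted p = 0.0266), and its interaction was 0.45 ± 0.14 (SE, adjusted p = 0.0188). Of 8 tested thin filament genes, Tmod1 and Lmod2 were the 2 called in either comparison, and Tmod1 was the single gene called in WT JZL184, beside shares over all genes of 14.4% lower, 16.9% higher and 14.2% lower.

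The Z-disc and its links formed the largest group, with 20 tested genes. In CD VEH, 10 were lower and 2 were higher, in CD JZL184 against CD VEH 8 were higher and 2 lower, and in WT JZL184 8 were lower. The shares of all genes in the same order were 14.4% and 15.6%, 16.9% and 16.6%, and 14.2%. Actn2, which crosslinks actin in the Z-disc, was at 1070.4 and 1125 CPM in WT VEH, 748, 871 and 778 CPM in CD VEH, 850.3, 665 and 852 CPM in WT JZL184 and 1008, 1097 and 1103 CPM in CD JZL184. Its CD VEH and WT JZL184 mice lay below all others, at log2 fold-changes of -0.46 ± 0.11 (SE, adjusted p = 0.013) and -0.48 ± 0.11 (SE, adjusted p = 0.011) against WT VEH. It rose in CD JZL184 against CD VEH by 0.42 ± 0.10 (SE, adjusted p = 0.0105). The fall in CD VEH was lost in 2 of 15 alternatives and that in WT JZL184 in 3 of 15.

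Ldb3 (also called Cypher or ZASP), which binds alpha-actinin, was at 708 and 744 CPM in WT VEH, 521, 620.5 and 563 CPM in CD VEH, 581, 504 and 569 CPM in WT JZL184 and 697, 753 and 754 CPM in CD JZL184. It fell in CD VEH by 0.35 (SE 0.09) and in WT JZL184 by 0.40 (SE 0.09), and rose in CD JZL184 against CD VEH by 0.37 ± 0.09 (SE, adjusted p = 0.00817). The fall in CD VEH was lost in 4 of 15 alternatives and that in WT JZL184 in 3 of 15. Mypn, myopalladin, which links nebulette or nebulin to alpha-actinin, was at 99.4 and 114 CPM in WT VEH, 62.4, 76.00 and 64.9 CPM in CD VEH, 87.2, 64.8 and 80.99 CPM in WT JZL184 and 90.9, 101 and 101 CPM in CD JZL184. Its mice showed the same separation as those of Ldb3, with log2 fold-changes of -0.65 ± 0.12 (SE, adjusted p = 0.00467), -0.46 ± 0.12 (SE, adjusted p = 0.0175) and 0.53 ± 0.11 (SE, adjusted p = 0.00554) in the same order. Of these calls of Mypn, only that in WT JZL184 was lost, in 3 of 15 alternatives.

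Flnc (chr6:29433256-29461883, plus strand), the muscle filamin that crosslinks actin around the Z-disc, was at 216 and 255 CPM in WT VEH, 130.2, 168 and 154 CPM in CD VEH, 169.9, 114 and 159 CPM in WT JZL184 and 222, 223 and 261 CPM in CD JZL184. CD VEH and WT JZL184 mice overlapped each other and were below the rest. Its log2 fold-change was -0.64 ± 0.16 (SE, adjusted p = 0.0126) in CD VEH, -0.67 ± 0.16 (SE, adjusted p = 0.0104) in WT JZL184 and 0.64 ± 0.14 (SE, adjusted p = 0.00702) in CD JZL184 against CD VEH. The call in CD VEH was lost in 2 of 15 alternatives and that in WT JZL184 in 1 of 15.

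Cmya5, myospryn, a large protein at the costamere and Z-disc, was at 796 and 722 CPM in WT VEH, 504, 629 and 489 CPM in CD VEH, 523, 409 and 508 CPM in WT JZL184 and 828, 795 and 836 CPM in CD JZL184. It fell in CD VEH by 0.49 (SE 0.13) and in WT JZL184 by 0.66 (SE 0.13), and rose in CD JZL184 by 0.60 ± 0.11 (SE, adjusted p = 0.00392). The fall in CD VEH was lost in 4 of 15 alternatives and that in WT JZL184 in 1 of 15. The CD JZL184 and WT VEH mice of Cmya5 overlapped. Synpo2l also fell in CD VEH by 0.62 and rose in CD JZL184 by 0.53, and Xirp1, a Xin repeat protein of the intercalated disc, fell by 0.53 and rose by 0.37 in the same comparisons. The rise of Xirp1 was lost in 3 of 16 alternatives, without mouse C of CD JZL184 or mouse A or E of CD VEH, and its fall without either WT VEH mouse. Xirp2, its relative, was at 484 and 466 CPM in WT VEH, 259, 345 and 343 CPM in CD VEH, 455, 209 and 359 CPM in WT JZL184 and 434, 385 and 423 CPM in CD JZL184. The WT JZL184 mice differed by 2.17-fold, mouse B being the lowest of all, and the CD JZL184 and WT JZL184 mice overlapped. With all mice in the fit, Xirp2 passed the genotype by JZL184 interaction and none of the other comparisons, at 0.87 ± 0.32 (SE, adjusted p = 0.0369). This was lost in 7 of 21 alternatives, among them the length offset (0.57, adjusted p = 0.132).

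Des, which encodes the intermediate filament that ties Z-discs together, was at 1066 and 1098 CPM in WT VEH, 844, 962 and 887 CPM in CD VEH, 1111, 905 and 991 CPM in WT JZL184 and 1009, 1016 and 1034 CPM in CD JZL184. All CD VEH mice were below both WT VEH mice, by 0.27 ± 0.09 on the log2 scale, at an adjusted p just under the limit. The call was lost under 8 of 15 alternatives.

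Z-disc genes with other directions stood beside these. Tcap (chr11:98383811-98384953, plus strand), telethonin, which caps the end of titin in the Z-disc, was at 400.4 and 418 CPM in WT VEH, 815, 924 and 527 CPM in CD VEH, 373, 799.8 and 394 CPM in WT JZL184 and 615, 651 and 512 CPM in CD JZL184. All CD VEH mice were above both WT VEH mice, by 0.88 ± 0.31 (SE, adjusted p = 0.0469), and mouse B alone was high in WT JZL184. That call was lost under 8 of 15 alternatives, among them DESeq2 and the offset for gene length (0.63, adjusted p = 0.122).

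Myoz2 (chr3:123006206-123035015, minus strand), calsarcin-1, which tethers calcineurin to the Z-disc, was at 697 and 739 CPM in WT VEH, 889.9, 799 and 1030.0 CPM in CD VEH, 886, 873 and 821 CPM in WT JZL184 and 696, 702 and 659 CPM in CD JZL184. CD VEH and WT JZL184 mice lay above all WT VEH and CD JZL184 mice. It rose in CD VEH by 0.34 ± 0.10 (SE, adjusted p = 0.0295) and fell in CD JZL184 by 0.40 (SE 0.09, adjusted p = 0.00752), while WT JZL184 against WT VEH gave 0.26 ± 0.10 (SE, adjusted p = 0.0739). The call in CD VEH was lost without mouse A or E of CD VEH, without either WT VEH mouse and with the length offset. Csrp3, muscle LIM protein, was at 893 and 958 CPM in WT VEH, 1074, 1068 and 1141 CPM in CD VEH, 1188, 1001 and 961 CPM in WT JZL184 and 861, 941 and 883 CPM in CD JZL184. It fell in CD JZL184 against CD VEH by 0.29 (SE 0.09, adjusted p = 0.0266) and gave 0.24 ± 0.10 in CD VEH (SE, adjusted p = 0.0828), where DESeq2 called it (0.23, adjusted p = 0.0266). The call in CD JZL184 was lost under 5 of 16 alternatives, among them the length offset (-0.20, adjusted p = 0.0899).

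Assembly and turnover genes made up a group of 8 tested. Beside shares over all genes of 14.4%, 16.9% and 14.2%, 1 was lower in CD VEH, 2 were higher when CD JZL184 was compared with CD VEH, and 3 were lower in WT JZL184. Trim55 (chr3:19644474-19692421, plus strand), the ubiquitin ligase MuRF2, which binds titin and microtubules during assembly, was at 82.3 and 80.05 CPM in WT VEH, 48.2, 52.5 and 51.3 CPM in CD VEH, 59.6, 45.8 and 52.8 CPM in WT JZL184 and 70.3, 71.1 and 75.6 CPM in CD JZL184. CD VEH and WT JZL184 mice overlapped each other, lay below all CD JZL184 mice, and these lay below both WT VEH mice. Trim55 fell in CD VEH by 0.68 (SE 0.09, adjusted p = 0.00188) and in WT JZL184 by 0.62 (SE 0.09, adjusted p = 0.00204), and rose in CD JZL184 by 0.51 ± 0.08 (SE, adjusted p = 0.00257), and no alternative fit removed these calls. Its relative Trim54 (MuRF3) rose in CD JZL184 by 0.30, a call lost under 5 of 16 alternatives, all of them left-out mice.

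Smyd1, a methyltransferase needed for myofibril assembly, was at 408 and 420.0 CPM in WT VEH, 331, 373 and 343 CPM in CD VEH, 385, 295 and 322 CPM in WT JZL184 and 417, 409.8 and 424 CPM in CD JZL184. It fell in WT JZL184 by 0.31 (SE 0.10, adjusted p = 0.0407), a call lost under 5 of 15 alternatives, among them leaving out mouse B or D of WT JZL184. Hspb7, a small heat shock protein of heart muscle that limits actin polymerisation, was at 1361 and 1393 CPM in WT VEH, 1131, 1258 and 1106 CPM in CD VEH, 1131, 1110.1 and 1067 CPM in WT JZL184 and 1261, 1438 and 1315 CPM in CD JZL184. It fell in WT JZL184 by 0.32 (SE 0.09, adjusted p = 0.0195). Neither passed in CD VEH, where DESeq2 called both (Smyd1 -0.26, adjusted p = 0.0308, and Hspb7 -0.25, adjusted p = 0.00479), and all CD VEH mice were below both WT VEH mice for each gene. Cryab, Unc45b and Smyd2, which act as chaperones or a methyltransferase of sarcomeric proteins, were DEGs in none of the comparisons. In all, 13 members were DEGs in none of the 6 comparisons, the others being Myl3, the 5 thin filament genes above and Myot, Smpx, Ankrd23 and Fhl2 of the Z-disc and its links. Their log2 fold-changes in CD VEH against WT VEH ran from -0.30 (Unc45b) to 0.31 (Fhl2).

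Long genes carried most of the calls. Of 23 members with over 4 kb of exon, 15 were lower and 0 higher in CD VEH, and of 24 shorter members 5 were lower and 2 higher. Over all tested genes, 20.8% of the long and 5.02% of the short ones were lower, and 9.18% and 25.2% were higher. Spearman's rho between log2 fold-change and exon length for CD VEH compared with WT VEH was -0.65 over the 47 members and -0.40 over 11240 genes. For JZL184 in CD mice the same values were 0.64 and 0.41, and for JZL184 in WT mice they were -0.73 and -0.34. These values describe genes that share libraries, and genes are not replicates.

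With an offset for gene length in each mouse, rho was -0.30 over the members and 0.00 over all genes in CD VEH, 0.21 and -0.01 for JZL184 in CD mice, and -0.45 and 0.01 for JZL184 in WT mice. With the length of the longest transcript, after the same offset, rho over the members was -0.47, 0.37 and -0.58 in that order, so a relation with length remained among the members. The counts of members then were 22 lower and 0 higher in CD VEH (10.8% of all genes lower), 19 higher in CD JZL184 against CD VEH (13.4% of all genes higher) and 15 lower in WT JZL184 (12.6% of all genes lower). Ttn, Tcap, Myoz2, Pdlim5 and Synpo2 were no longer DEGs in CD VEH, whereas Neb, Obsl1, Flnc, Lmod2 and Trim55 were. Members not called before were newly lower, among them Myl3 (-0.28, adjusted p = 0.0222), so the set of DEGs changed as well as its size. The cause of the relation with length was not tested.

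**Figure D4:**
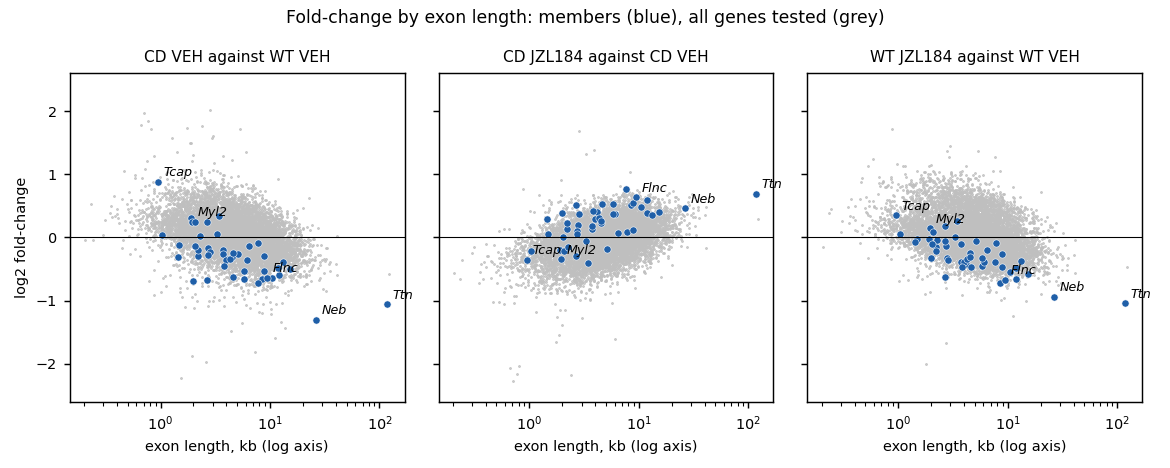
Log2 fold-change (y axis) against exon length in kb (log x axis) for 3 comparisons, with the 47 tested members in blue over all tested genes in grey. Members slope in the direction of all genes, down with length in CD VEH and WT JZL184 and up in CD JZL184 against CD VEH, and 4 grey points lie beyond the axis at ±2.6.

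Markers of other cell types were measured in the same hearts. Of all tested genes, 15.6% were higher in CD VEH, 15.0% were higher in WT JZL184 and 16.6% were lower in CD JZL184 against CD VEH. In the opposite directions the shares were 14.4%, 14.2% and 16.9%. All 4 endothelial markers tested were higher in WT JZL184 and 3 in CD VEH, both against WT VEH, and 3 were lower in CD JZL184 against CD VEH. Their summed level was 454 to 466 CPM in WT VEH, 582 to 635 CPM in CD VEH, 698 to 709 CPM in WT JZL184 and 454 to 536 CPM in CD JZL184. The 4 macrophage markers were all higher in CD VEH and in WT JZL184 and all lower in CD JZL184 when set against CD VEH, at sums of 73.8 to 79.4 CPM in WT VEH, 102 to 125 CPM in CD VEH, 95.8 to 154 CPM in WT JZL184 and 69.04 to 79.1 CPM in CD JZL184. Fibroblast markers were higher in 2 of 5 cases in CD VEH and 3 of 5 in WT JZL184, and lower in 2 of 5 in CD JZL184, at sums of 640.3 to 652 CPM in WT VEH, 761 to 880.5 CPM in CD VEH, 787 to 964 CPM in WT JZL184 and 593 to 689 CPM in CD JZL184.

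Smooth muscle markers summed to 77.7 to 89.8 CPM in WT VEH, 90.9 to 100.3 CPM in CD VEH, 118 to 159 CPM in WT JZL184 and 57.6 to 74.1 CPM in CD JZL184, with 2 of 3 tested genes higher in CD VEH and in WT JZL184 and 2 of 3 lower in CD JZL184. Cardiomyocyte markers outside the members summed to 38862 to 41298 CPM in WT VEH, 29652 to 34973 CPM in CD VEH, 25737 to 34264 CPM in WT JZL184 and 39794 to 41649.8 CPM in CD JZL184, and 2 of 8 were lower in CD VEH, 4 of 8 lower in WT JZL184 and 5 of 8 higher in CD JZL184. Erythroid markers were called in 0 of 4 cases in CD VEH and 4 of 4 lower in CD JZL184, the latter 0 of 4 without mouse A of CD VEH. Without that mouse 1 of 4 macrophage, 1 of 5 fibroblast, 0 of 3 smooth muscle and 3 of 4 endothelial markers were higher in CD VEH, and 1 of 8 cardiomyocyte markers was lower. In CD JZL184, 3, 2, 1 and 2 of these markers were then lower, in the same order, and 4 of 8 cardiomyocyte markers were higher. No marker was at 0 in all mice. The share of counts from the mitochondrial genome also moved with the groups, at 39.4% to 41.2% in WT VEH and 36.4% to 40.1% in CD JZL184, against 43.5% to 44.7% in CD VEH and 44.96% to 46.6% in WT JZL184, with no overlap between the first pair of groups and the second. With the mitochondrial genes left out of the totals, 22, 21 and 19 members were DEGs in CD VEH, for JZL184 in CD mice and for JZL184 in WT mice. The part of cell composition, or of what the mitochondrial share reflects, in the members' values was not tested.

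**Figure D5:**
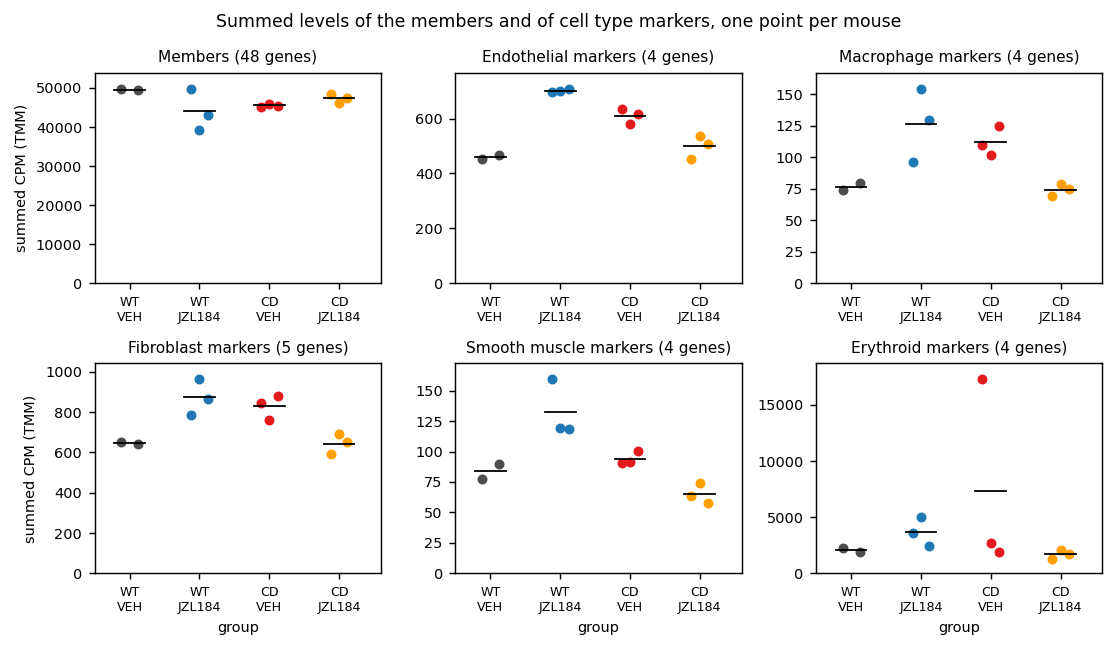
Summed CPM of the 48 members and of 5 marker lists, with a point per mouse and the group mean as a line, on linear axes from 0. Endothelial, macrophage and fibroblast sums are higher in WT JZL184 and CD VEH than in WT VEH, and mouse A of CD VEH stands alone in the erythroid panel.

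CD JZL184 was compared with WT JZL184 to set the genotypes side by side under treatment. There, 20 members were higher, beside 19.6% of all genes, and 2 were lower (Myoz2 and Pdlim3), beside 18.6%. Their median log2 fold-change was 0.18, against 0.02 over all genes. The highest log2 fold-changes among the DEGs were those of Cmya5, at 0.77 ± 0.11 (SE, adjusted p = 0.000972), Flnc, at 0.67 ± 0.14 (SE, adjusted p = 0.00417), and Obsl1, at 0.58 ± 0.08 (SE, adjusted p = 0.000794). Ttn, at 0.68 ± 0.27 (SE, adjusted p = 0.0651), did not pass. The count was 9 without mouse E and 14 without mouse A of CD JZL184, and 17 without mouse B of WT JZL184.

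Treated CD mice were also set against WT VEH. The number of DEGs among the members was 0, beside 0.203% of all genes, and 2 members had an unadjusted p under 0.05 (Neb and Pdlim3), beside 9.53%. DESeq2 called 0, beside 0.919%. The log2 fold-changes ran from -0.84 (Neb) to 0.53 (Tcap), with a median of -0.07, and the smallest adjusted p was 0.282. In a fit of these 2 groups alone, Neb passed at -0.85, 1 of 47 members lower beside 0.495% of all genes. A p that misses the limit does not show equal levels, and SEs near 0.11 for Actn2 or 0.30 for Ttn on the log2 scale set what could be seen.

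The interaction tests whether JZL184 had the same effect in CD and in WT mice. For 27 members the effect was more positive in CD mice, beside 25.8% of all genes, and for 3 it was more negative (Myl2, Myoz2 and Csrp3), beside 25.7%. With the length offset Myl2 (-0.23, adjusted p = 0.247) and Csrp3 (-0.31, adjusted p = 0.0637) lost this call. The median difference of log2 fold-changes was 0.53, against 0.00 over all genes. By role, it was more positive in 4 of 4 filament giants, 5 of 7 thick filament and M-band genes, 3 of 8 thin filament genes, 11 of 20 Z-disc genes and 4 of 8 assembly genes. Ttn had 1.73 ± 0.40 (SE, adjusted p = 0.00388) and Neb 1.41 ± 0.34 (SE, adjusted p = 0.00483), which with the length offset were 0.65 (adjusted p = 0.0376) and 0.87 (adjusted p = 0.041).

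The 6 members with the lowest adjusted p were Obsl1 at 1.23 ± 0.12 (SE, adjusted p = 8.71e-05), Trim55 at 1.14 ± 0.12 (SE, adjusted p = 0.000123), Cmya5 at 1.26 ± 0.17 (SE, adjusted p = 0.000233), Flnc at 1.31 ± 0.21 (SE, adjusted p = 0.000518), Ldb3 at 0.77 ± 0.13 (SE, adjusted p = 0.000605) and Mypn at 0.98 ± 0.16 (SE, adjusted p = 0.00062). For each of them JZL184 mice were below vehicle mice in WT and above them in CD, without overlap. The 6 were picked by this test in the same mice, so the separation describes them and adds no evidence. Other members showed it too, among them Actn2, Tmod1 and Mylk3, and its share over all genes was not counted. The count of 30 was between 26 and 35 when any mouse was left out.

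A further 56 genes of the sarcomere, Z-disc and their links were listed beside the members, and 52 were tested. In CD VEH 22 were lower and 6 higher, in CD JZL184 against CD VEH 21 were higher and 8 lower, and in WT JZL184 22 were lower and 6 higher. The shares of all genes in the same order were 14.4% and 15.6%, 16.9% and 16.6%, and 14.2% and 15.0%. Acta1, skeletal alpha-actin, had the lowest value in CD VEH, at -2.23 ± 0.37 (SE, adjusted p = 0.00329), with 223 and 204 CPM in WT VEH and 22.3, 60.2 and 54.3 CPM in CD VEH, and Csrp1, the smooth muscle and non-muscle relative of Csrp3, the highest, at 0.55 ± 0.12 (SE, adjusted p = 0.00704). Myh7, the slow myosin heavy chain, had the highest value in CD JZL184 against CD VEH, at 0.71 ± 0.17 (SE, adjusted p = 0.0105), and the lowest in WT JZL184, at -0.99 ± 0.19 (SE, adjusted p = 0.0049), and also the highest interaction, at 1.69 ± 0.26 (SE, adjusted p = 0.000375).

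Tpm4, a non-muscle tropomyosin, had the lowest value in CD JZL184 against CD VEH, at -0.69 ± 0.10 (SE, adjusted p = 0.00229), and in the interaction, at -1.15 ± 0.16 (SE, adjusted p = 0.000241), and Tpm2 the highest in WT JZL184, at 0.67 ± 0.13 (SE, adjusted p = 0.00591). In CD JZL184 against WT JZL184, 20 were higher and 9 lower, beside 19.6% and 18.6% of all genes, from Acta1 (-1.80 ± 0.34) to Fhod3, a formin of the sarcomere (0.81 ± 0.11). Against WT VEH, CD JZL184 hearts had 2 DEGs in the list, beside 0.203% of all genes, Acta1 at -2.08 ± 0.37 and Tmod4 at -0.75 ± 0.11, both lower. Acta1 gave 0.15 ± 0.33 (SE, adjusted p = 0.75) in CD JZL184 against CD VEH, and Tmod4 gave -0.07 ± 0.10 (SE, adjusted p = 0.654).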

How the data were processed

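Ventricular RNA of 11 mice was extracted with TRIZOL and sequenced on a HiSeq3000. The authors deposited estimated counts per gene, made with Salmon 0.7.2 on Ensembl release 85 (GRCm38) and summed with tximport 1.2.0. Strandedness was not given in the sources used here, so reads of overlapping antisense genes cannot be told apart. All columns were mapped to a group (0 were left out).

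Here these values were rounded to integers. Identifiers without version were named by GENCODE mouse release 21, which matched 22238 of 22608, of which 16070 had the same version. The test was the quasi-likelihood test of edgeR 4.0.16 (limma 3.58.1, R 4.3.3) with TMM scaling, a mean per group over all 11 mice, a mean log2 CPM of at least 1 and Benjamini-Hochberg adjustment over 11319 genes. The biological coefficient of variation was 9.14%. CPM values use TMM library sizes, and floors of 3 counts cover counting error only. The fit was tested on simulated data.

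WT controls were littermates, but which mice shared a litter was not given in the sources used here, so p-values measure the spread between these mice. The members and lists were chosen with earlier results of these data known. Values in every mouse are given for the 3 highest and 3 lowest called members in each of the first 3 comparisons, up to 6 members called in the interaction, a set of core filament genes whatever their result, and called members with over 2-fold spread within a group. Of the pathway list, the extreme called genes are named. Alternatives were DESeq2 1.42.0, other scaling and filters, offsets for gene length and GC content, robust estimation, fits of the groups compared alone, stricter limits and leaving out each mouse. Protein sequences were planned and are not used here.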

Additional observations from a re-analysis of the deposited data

Results flagged for a closer look

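The effect of JZL184 differed between CD and WT mice in 30 of the 47 tested members, by the interaction term of edgeR's quasi-likelihood fit at an adjusted p under 0.05. It was more positive in CD mice for 27 of them, beside 25.8% of all genes, and more negative for 3, beside 25.7%. The 6 with the lowest adjusted p were Obsl1, with a difference of log2 fold-changes of 1.23, Trim55 with 1.14, Cmya5 with 1.26, Flnc with 1.31, Ldb3 with 0.77 and Mypn with 0.98. In each of these 6, all JZL184 mice lay below the vehicle mice in WT and above them in CD. They were picked by the interaction test in the same mice, so this separation adds no evidence to it, and other members showed it too. All 4 endothelial and all 4 macrophage markers were higher with JZL184 in WT, beside 15.0% of all genes. In CD, 3 of 4 endothelial and 4 of 4 macrophage markers were lower with it, beside 16.6%. Without mouse A of CD VEH these were 2 and 3. The mitochondrial share of counts moved the same way as these markers. The part of the markers or of that share in the members' differences was not tested.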

How the results depend on the processing

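The counts of DEGs among the 47 members were 22 for the deletion under vehicle, 21 for JZL184 in CD mice, 19 for JZL184 in WT mice, 22 for the deletion under JZL184, 0 for treated CD mice compared with WT VEH and 30 for the interaction. Fitting only the groups compared gave 36 in the first, 8 in the third and 1 (Neb) in the fifth. At an adjusted p under 0.01 the first 4 counts were 6, 9, 5 and 8. Requiring a log2 fold-change of 1 or more in size, they were 2, 0, 1 and 0, and the interaction had 9. Leaving out 1 mouse gave 4 to 23, 11 to 25, 4 to 27 and 9 to 28 in the first 4 comparisons, 0 in the fifth and 26 to 35 in the interaction. Under DESeq2, other scaling, filters, robust estimation and the offsets for length and GC content, all counts stayed within 1.5 times. Of single genes, Tcap in WT JZL184 compared with WT VEH ran from -0.094 to 0.54 when a mouse was left out, and reversed without mouse B of WT JZL184; it passed no test there. Among the other values of named genes, 180 were no longer past the limit and 18 newly passed. Where the construction does not show it, the cause was not tested. No paired analysis was possible because the columns carry no replicate number of the labels. Their letters recur between groups, but nothing in the sources used here says that a letter pairs mice, and no fit blocked by letter was run. With 2 WT VEH mice, comparisons against them rest on few animals.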

Other observations

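Of the listed relatives of the members, 4 that are used in many cell types are described here, chosen after their values were seen. The list holds others of this kind, such as Actn1, Capza1 and Vcl, which are not described, so the 4 do not stand for all of them. Alpha-actinin-4 (Actn4), the non-muscle form, rose in CD VEH by 0.29 ± 0.08 (log2, SE) and in WT JZL184 by 0.43 ± 0.08, where Actn2 fell. Tropomodulin-3 (Tmod3), the broadly expressed form, rose in CD VEH by 0.37 ± 0.11 and in WT JZL184 by 0.47 ± 0.11, where Tmod1 fell. Tpm3 rose by 0.46 ± 0.11 and 0.45 ± 0.11 and Tpm4 by 0.52 ± 0.12 and 0.47 ± 0.12 in the same comparisons, while Tpm1 did not pass. All 4 genes fell in CD JZL184 against CD VEH, Actn4 by 0.26, Tmod3 by 0.39, Tpm3 by 0.43 and Tpm4 by 0.69. Each adjusted p was under 0.05 in edgeR's test. Of all tested genes, 15.6% were higher in CD VEH, 15.0% were higher in WT JZL184 and 16.6% were lower in CD JZL184 against CD VEH.

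A second set from the same list, also picked after its values were seen, comprised large or muscle-enriched genes. It leaves out other muscle genes of the list, and Acta1 and Tmod4, described above, did not pass in CD JZL184 against CD VEH. Speg fell in CD VEH by 0.64 and rose in CD JZL184 by 0.56, and Sorbs2 fell by 0.67 and rose by 0.57. The ubiquitin ligase adaptor Fbxo32 (atrogin-1) fell in CD VEH by 0.71 and rose in CD JZL184 by 0.67. The part of cell composition in these values was not tested.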
